A study of Danio rerio with 4 samples.

Results

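Early endothelial effector genes are the genes that carry out the work of young vessel cells: secreted factors, surface receptors, junction proteins and the signalling proteins beneath the membrane. They were followed here as a fixed set of 10 symbols (egfl7, dusp5, cdh5, tie1, clec14a, rasip1, she, yrk, tmem88a and arhgef9b), looked up by symbol in a table of 24235 zebrafish genes. The set was chosen with earlier results of these data known. A row was found for 9 of the 10, and arhgef9b was not analysed here. The set was compared between 2 groups of whole embryos at the 6-somite stage. The Npas4l-KO group (2 libraries of total RNA) carried npas4l bns297/bns297, that is, the bns297 allele on both chromosomes, and the WT group (2 libraries) was wild-type AB. Both groups were grown in E3 medium. How many embryos or clutches went into a library, and how homozygotes were picked, the labels leave unsaid, so the spread between libraries may be partly technical.

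In zebrafish, vessel and blood cells arise together from lateral plate mesoderm. The bHLH-PAS factor Npas4l acts near the top of this programme, ahead of the transcription factors etv2, tal1 and lmo2, and embryos that lack it form few endothelial or blood cells. The effector genes follow those regulators: their products let angioblasts adhere, form a lumen and respond to growth factors. At the 6-somite stage angioblasts are few and vessels have not yet opened, so RNA of such genes is a small part of the RNA of a whole embryo.

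The values are the authors' normalised read numbers, rounded to whole numbers, and are called normalised values below. The 9 genes together held 155 and 257 in Npas4l-KO replicates 1 and 2, against 239 and 256 in WT replicates 1 and 2. As a share of all normalised values this was 0.00188% and 0.00353% in the Npas4l-KO libraries, against 0.00299% and 0.00316% in the WT libraries. The set as a whole was thus lowest in one mutant library. In the other it was highest, by sum only narrowly (257 against 256), and rasip1 alone held 32 of that 257. Npas4l-KO replicate 2 stood apart from the other 3 libraries over the whole table: it listed 299 genes at 0, against 2444 to 3000 in those libraries, and was the highest library for 39.3% of all genes. Of tissue markers for somite, neural tube, notochord, surface epithelium, heart and other tissues, 27 of 35 rows reached 10 in every library. The npas4l transcript itself was not analysed here, so the labels were not checked by the mutated gene.

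Of the 9 genes, egfl7, dusp5, yrk and cdh5 had lower values in each mutant library than in either wild-type library, 0 were higher in both, and 5 overlapped. Over all genes of the table, 12.2% were lower in both mutant libraries and 15.6% were higher in both. As the set was chosen with earlier results of these data known, these shares are no test of it. Read from each mutant library alone, 5 of 9 genes lay below both wild-type libraries in Npas4l-KO replicate 1 (26.8% of all genes) and 4 of 9 in Npas4l-KO replicate 2 (29.6% of all genes). None of the genes passed the test, and limma-voom called 0 (the test was limma-trend on log2(value + 1), Benjamini-Hochberg adjusted p under 0.05 over the 16653 genes whose mean value reached 10). That threshold called 0.042% of genes as lower and 0.006% as higher. Only 7 of the 9 genes reached a mean of 10. Of those, 2 were lower at an unadjusted p under 0.05, as were 1.91% of genes tested, and 0 were higher, against 1.84%. With either WT library left out, the count of lower genes was 0. In whole embryos, fewer endothelial cells and less RNA per cell cannot be told apart.

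**Figure D1:**
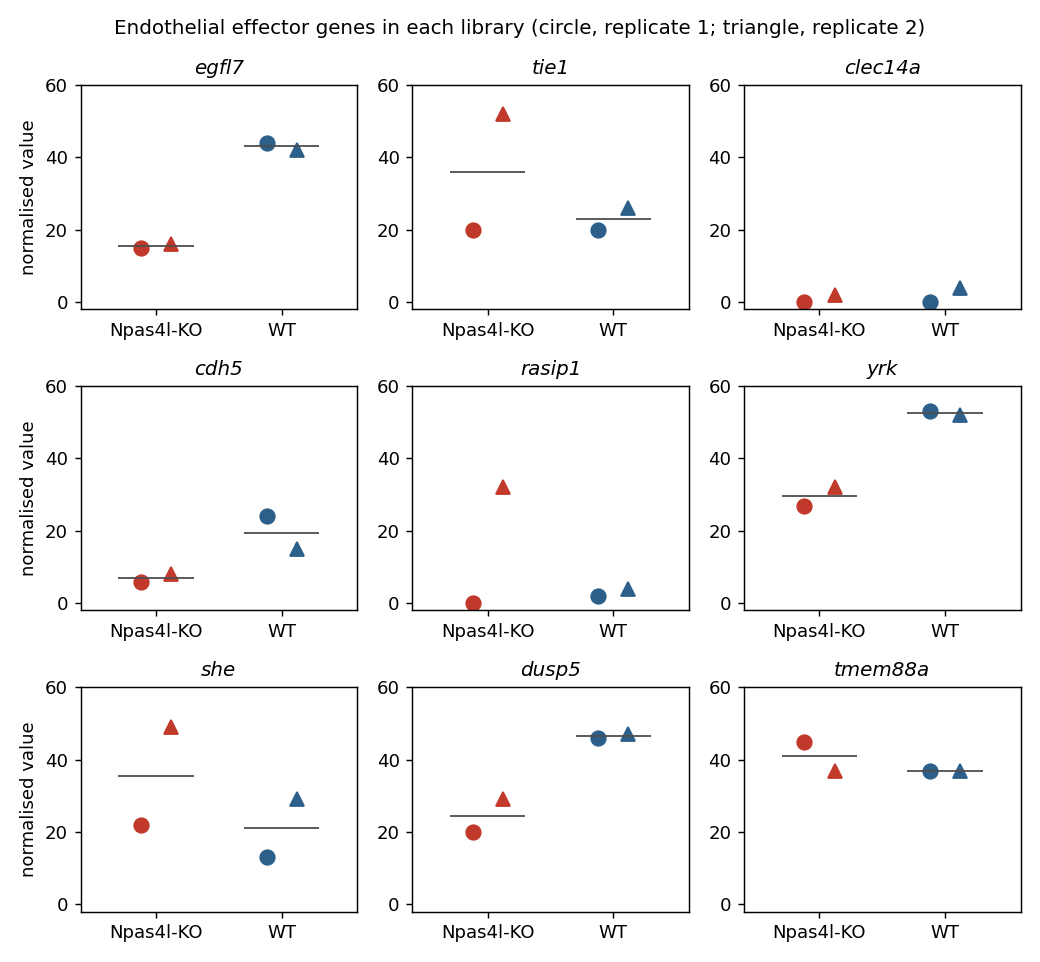
Normalised value (y axis, 0 to 60) of the 9 genes in each library, Npas4l-KO left of WT. Circles are replicate 1, triangles replicate 2 and lines the group mean (n = 2 each, not drawn for clec14a and rasip1, which are listed at 0 in some library). egfl7, cdh5, yrk and dusp5 are lower in both mutant libraries, while in tie1, rasip1 and she Npas4l-KO replicate 2 is the highest library.

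egfl7 encodes a secreted factor of endothelial cells that acts in the matrix around forming vessel tubes. It had normalised values of 15 and 16 in the Npas4l-KO libraries, against 44 and 42 in the WT libraries. The libraries of each group lay close together and the groups were far apart. Its mean was 15.5 ± 0.707 in Npas4l-KO and 43.0 ± 1.41 in WT (SD, n = 2 each), and its log2 fold change was -1.42 ± 0.54 (SE; 95% interval -2.49 to -0.34, not adjusted for the number of genes). The unadjusted limma p was 0.0107 and the adjusted p was 1. Among genes tested, 0.216% had a log2 fold change as low or lower, and 0.907% an unadjusted p as small. egfl7 (ENSDARG00000100657) lies on chromosome 21 from 7666975 to 7703728 on the minus strand (GRCz10), and no other gene of the table overlaps it.

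Of the receptors at the cell surface, tie1 encodes an orphan receptor tyrosine kinase that modulates angiopoietin signalling through Tek (Tie2). It stood at 20 and 52 in the Npas4l-KO libraries, against 20 and 26 in the WT libraries. Npas4l-KO replicate 1 equalled the lower wild-type library, and Npas4l-KO replicate 2 was above all others. The log2 fold change of 0.49 ± 0.54 (95% interval -0.58 to 1.55, limma adjusted p = 1) changed sign to -0.18 without Npas4l-KO replicate 2. clec14a encodes a C-type lectin of the endothelial surface that binds the matrix protein multimerin 2. It was listed at 0 and 2 in Npas4l-KO and at 0 and 4 in WT, under the mean of 10 needed for the test as reported. At such values its fold change rests largely on the 1 added to each value, and a difference could not be detected at this depth. tie1 (ENSDARG00000004105) lies on chromosome 6 from 33998984 to 34024189 on the minus strand, and clec14a (ENSDARG00000103533) on chromosome 17 from 10086132 to 10087854 on the plus strand.

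At the cell junction, cdh5 encodes VE-cadherin, the adhesion molecule that joins endothelial cells to each other. It had normalised values of 6 and 8 in the Npas4l-KO libraries, against 24 and 15 in the WT libraries. The groups did not overlap, although the wild-type libraries differed more from each other than the mutant ones. The means were 7.0 ± 1.41 in Npas4l-KO and 19.5 ± 6.36 in WT (SD, n = 2 each). At such low values its log2 fold change of -1.33 ± 0.97 had a 95% interval of -3.26 to 0.59, and its limma adjusted p was 1. cdh5 (ENSDARG00000075549, chromosome 7, 44106370 to 44180006, plus strand) shares 34.4 kb with bean1 on the same strand. bean1 was at 0 and 18 in Npas4l-KO and at 1 and 0 in WT.

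rasip1 encodes a Ras-interacting protein that works with Rap1 and Arhgap29 in opening the vessel lumen in mouse. It was listed at 0 and 32 in the Npas4l-KO libraries, against 2 and 4 in the WT libraries. A single library, Npas4l-KO replicate 2, held nearly all of its signal, and the other 3 were at or near 0. Its mean over the 4 libraries was 9.5, under the limit for testing. rasip1 (ENSDARG00000074829) lies on chromosome 16 from 12626633 to 12669820 on the plus strand and overlaps no other gene of the table.

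3 genes act inside the cell in signalling. yrk encodes a Src-family tyrosine kinase related to Yes. It had 27 and 32 in the Npas4l-KO libraries, against 53 and 52 in the WT libraries, so that each mutant library was well below both wild-type ones. The means were 29.5 ± 3.54 in Npas4l-KO and 52.5 ± 0.707 in WT (SD, n = 2 each). The log2 fold change of -0.82 ± 0.41 had a 95% interval of -1.64 to 0.0086 and a limma adjusted p of 1. The last 2.61 kb of yrk (ENSDARG00000004378, chromosome 19, 43763478 to 43836818, plus strand) overlap the antisense RNA gene BX649384.2. That gene was at 10 and 3 in Npas4l-KO and at 0 and 2 in WT. No source used here says whether reads were counted by strand.

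dusp5 encodes a nuclear phosphatase that switches off ERK and has been tied to angioblast numbers in zebrafish. It had 20 and 29 in the Npas4l-KO libraries, against 46 and 47 in the WT libraries. All mutant values were below all wild-type values, with more spread between the mutant libraries. The means were 24.5 ± 6.36 in Npas4l-KO and 46.5 ± 0.707 in WT (SD, n = 2 each). The log2 fold change was -0.92 ± 0.46 (95% interval -1.83 to -0.0068), with an unadjusted limma p of 0.0484 and an adjusted p of 1. she encodes an SH2-domain adaptor. It had 22 and 49 in the Npas4l-KO libraries, against 13 and 29 in the WT libraries, with the second library high in both groups and the groups overlapping. Its log2 fold change was 0.73 ± 0.56 (95% interval -0.39 to 1.85, limma adjusted p = 1). Every library moved it: it was 1.29 and 0.17 without Npas4l-KO replicates 1 and 2, and 0.18 and 1.28 without WT replicates 1 and 2. dusp5 (ENSDARG00000019307) lies on chromosome 22 from 29962131 to 29973677 on the minus strand, and she (ENSDARG00000087956) on chromosome 16 from 22672336 to 22691334 on the plus strand.

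tmem88a encodes a membrane protein that dampens Wnt signalling and is expressed in zebrafish lateral plate mesoderm, including heart and blood precursors. It had 45 and 37 in the Npas4l-KO libraries, against 37 in each WT library. The mutant values lay at or above the wild-type ones, and 3 of the 4 libraries held the same number. Its log2 fold change was 0.14 ± 0.42 (95% interval -0.69 to 0.97, limma adjusted p = 1), and -0.0057 with quantile normalization. The row of tmem88a (ENSDARG00000056920, chromosome 10, 22613718 to 22810208, plus strand) spans 196 kb and holds all of kdm6bb and 21.7 kb shared with efnb3a, both on the same strand. kdm6bb was at 193 and 267 in Npas4l-KO and at 291 and 198 in WT, and efnb3a at 53 and 77 in Npas4l-KO and at 88 and 77 in WT.

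**Figure D2:**
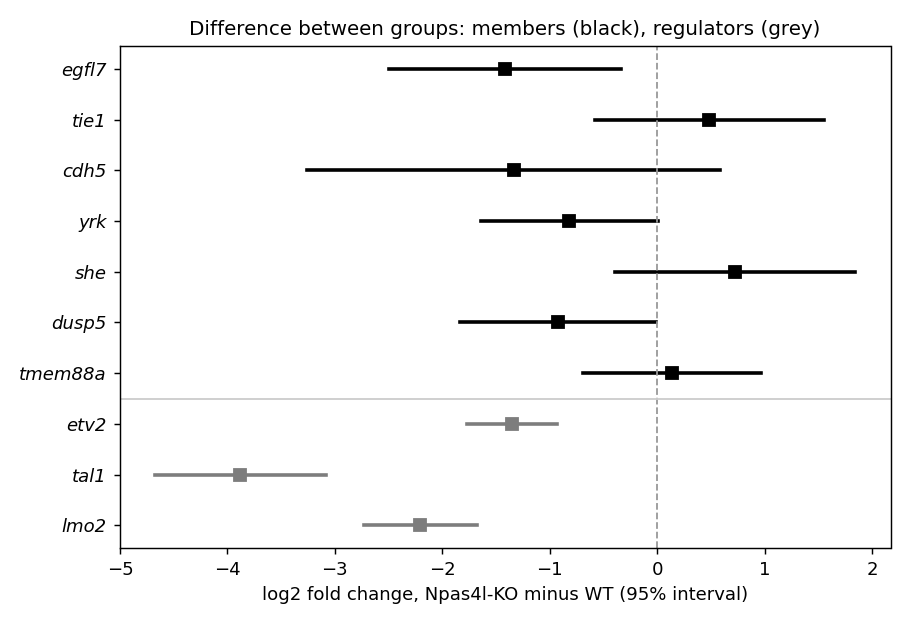
Log2 fold change, Npas4l-KO minus WT, on the log2(value + 1) scale (x axis) for the 7 effector genes tested (black) and for etv2, tal1 and lmo2 (grey). Squares are limma estimates and bars 95% intervals, not adjusted for the number of genes. The intervals of egfl7 (-2.49 to -0.34) and dusp5 (-1.83 to -0.0068) lie below 0, and those of the other 5 effector genes include 0.

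The regulators ahead of the effector genes were well below wild type in both mutant libraries. etv2, the ETS factor that sets off endothelial fate, had 127 and 86 in Npas4l-KO, against 294 and 244 in WT. tal1, a bHLH factor of blood and endothelial precursors, had 13 and 8 in Npas4l-KO, against 166 and 163 in WT, and lmo2, its LIM-domain partner, had 61 and 33 in Npas4l-KO, against 210 and 211 in WT. All 3 passed the limma test as lower, beside 0.042% of all genes tested. Their log2 fold changes were -1.35 ± 0.21, -3.88 ± 0.40 and -2.20 ± 0.26 for etv2, tal1 and lmo2. The estimates for egfl7 and cdh5 were near that of etv2, but their standard errors were 0.54 and 0.97, against 0.21 for etv2, at much lower normalised values. Whether effector genes and regulators differed in the size of their change was not tested.

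The mutant libraries differed for several of the effector genes. In Npas4l-KO replicate 1 the difference from the wild-type mean, on the log2(value + 1) scale, was -1.46 for egfl7, -1.51 for cdh5, -1.18 for dusp5 and -0.93 for yrk. In Npas4l-KO replicate 2 the same differences were -1.37, -1.15, -0.66 and -0.70. These 4 genes were thus low in each mutant library taken alone, as must hold where both mutant values lie below both wild-type ones. In contrast, tie1 stood at -0.18 in Npas4l-KO replicate 1 and at 1.15 in Npas4l-KO replicate 2, and she at 0.17 and 1.29. rasip1 pointed in opposite directions, at -1.95 in replicate 1, where it was listed at 0 and the difference rests on the added 1, and at 3.09 in replicate 2. The median over the 9 genes was -1.16 in Npas4l-KO replicate 1 and 0 in replicate 2, beside 0 and 0.14 over all genes. For both mutant libraries together it was -0.37, beside 0.07 over all genes. The gene in the middle was clec14a both for the -1.16 and for the -0.37, and with values of 0 to 4 its differences rest largely on the added 1.

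**Figure D3:**
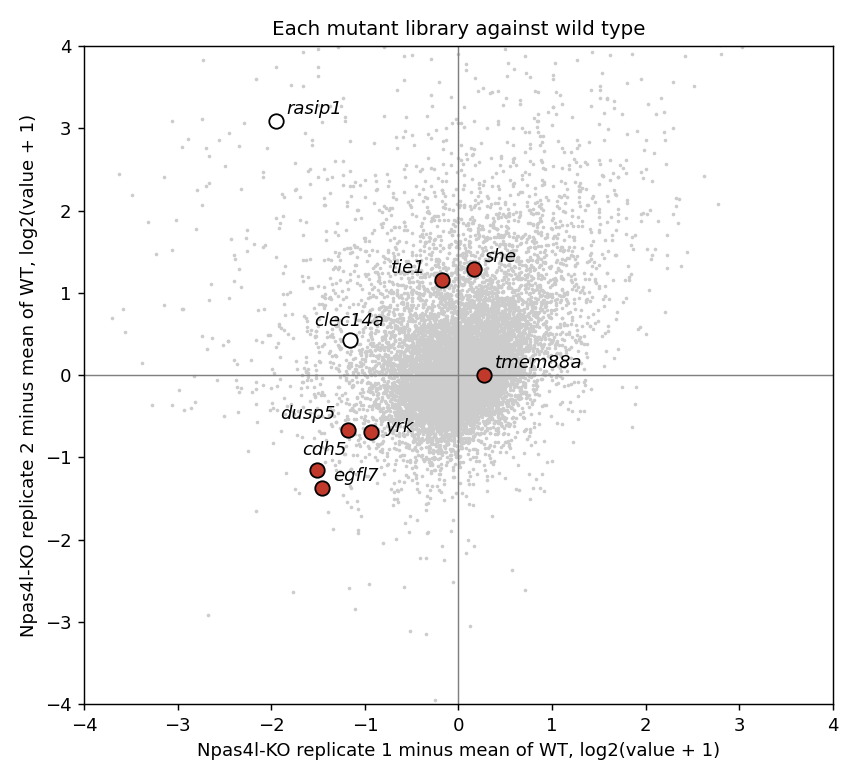
Difference from the wild-type mean on the log2(value + 1) scale in Npas4l-KO replicate 1 (x axis) and Npas4l-KO replicate 2 (y axis). Grey points are all 16653 genes tested, apart from those beyond the axes, filled circles are the effector genes tested and open circles those too low to be tested. egfl7, cdh5, dusp5 and yrk lie low in both libraries, whereas tie1, she and rasip1 lie above 1 in Npas4l-KO replicate 2 and below 1 in Npas4l-KO replicate 1.

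The spread between the mutant libraries was set against other genes of like level. Among 2340 genes with a wild-type mean of 15 to under 30, Npas4l-KO replicate 2 exceeded replicate 1 by a median of 0.36 (log2), and the middle 80% ran from -0.64 to 1.58. cdh5, at 0.36, lay on that median, and she and tie1, at 1.12 and 1.34, lay in its upper part. Among 2417 genes with a wild-type mean of 30 to under 60 the median was 0.12 and the range -0.64 to 0.92. egfl7, yrk, dusp5 and tmem88a lay within it, at 0.09, 0.24, 0.51 and -0.28. Among 5990 genes with a wild-type mean under 5 the median was 2.17 and the range -0.35 to 3.70. clec14a, at 1.58, lay within this range and rasip1, at 5.04, above it. The part of this library difference in the values of tie1, she and rasip1 was not tested. Without Npas4l-KO replicate 2 the log2 fold changes of egfl7, dusp5, cdh5 and yrk were -1.46, -1.18, -1.51 and -0.93. These are the replicate 1 differences given above. They are larger in size than the fold changes with both libraries, as replicate 2 stood above replicate 1 in each of these genes.

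**Figure D4:**
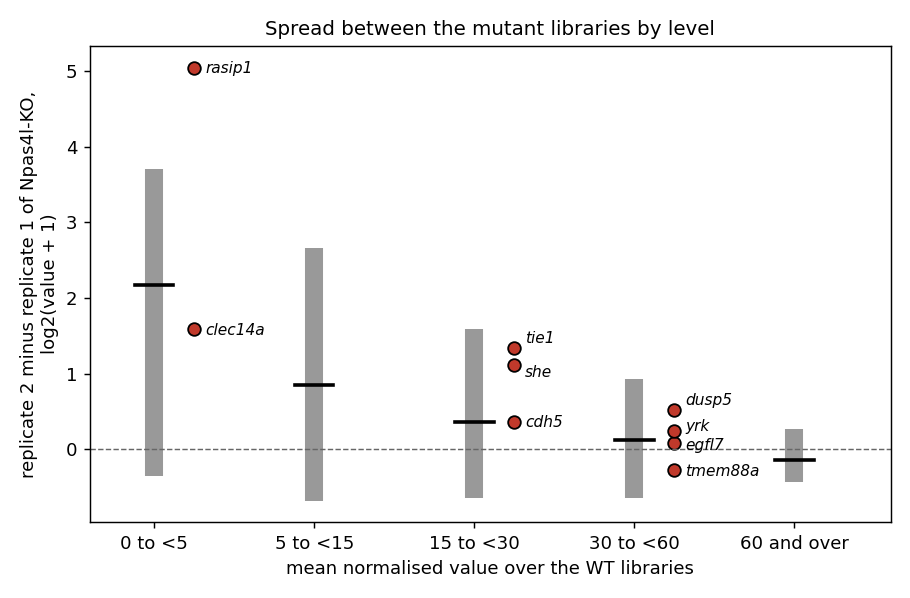
Npas4l-KO replicate 2 minus replicate 1 on the log2(value + 1) scale (y axis) for genes grouped by their mean normalised value in WT (x axis). Grey bars span the middle 80% of genes, black lines are medians and red circles the effector genes. The median falls with level, being 2.17 at the lowest level and -0.14 at 60 and over, and rasip1 alone of the 9 genes lies outside the bar of its level.

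Ratios between genes within a library do not depend on how the library was scaled, and gene length cancels when they are compared across libraries. egfl7 over tmem88a was 0.333 and 0.432 in the Npas4l-KO libraries, against 1.19 and 1.14 in the WT libraries. yrk over tmem88a was 0.6 and 0.865 in Npas4l-KO, against 1.43 and 1.41 in WT, and the groups were separate for both ratios. Given the values above, this had to be so and adds no support. egfl7 and yrk were lower in both mutant libraries, and tmem88a was lower in neither. The ratio of egfl7 to tie1 was 0.75 and 0.308 in Npas4l-KO, against 2.2 and 1.62 in WT. That of cdh5 to tie1 was 0.3 and 0.154 in Npas4l-KO, against 1.2 and 0.577 in WT. tie1 itself was at 52 in Npas4l-KO replicate 2, against 20 to 26 in the other libraries, which lowers both ratios there. dusp5 over yrk, 2 genes that were both low in the mutants, was 0.741 and 0.906 in Npas4l-KO and 0.868 and 0.904 in WT, and overlapped. The pairs were chosen after the values were seen, and no test was made.

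Paralogues and partners of the effector genes were taken from a list of 43 symbols, of which 36 had a matching row and 33 were tested. With limma-trend and with limma-voom 0 passed, and at an unadjusted p under 0.05 limma-trend held 1 lower and 1 higher gene, beside 1.91% and 1.84% of all genes tested. 6 of the 36 were lower in both mutant libraries and 8 were higher in both, beside 12.2% and 15.6% of all genes. tmem88b, the paralogue of tmem88a, had 22 and 38 in Npas4l-KO, against 49 in each WT library. This put both mutant libraries of tmem88b below wild type, unlike those of tmem88a, at a log2 fold change of -0.74 ± 0.43 (limma adjusted p = 1). tek, the angiopoietin receptor that pairs with Tie1, had 2 and 48 in Npas4l-KO and 7 and 14 in WT. As for tie1, she and rasip1, Npas4l-KO replicate 2 was the highest library. This held for 14 of the 36 genes, beside 39.3% of all genes. Among genes with a wild-type mean of 5 to under 15, as for tek, it held for 51.3%.

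Of the dual-specificity phosphatases, dusp6, an ERK phosphatase of the cytoplasm induced by Fgf, had 1448 and 1349 in Npas4l-KO and 1539 and 1501 in WT. dusp4, a nuclear relative of dusp5, had 177 and 176 in Npas4l-KO and 224 and 244 in WT, a log2 difference of -0.40 ± 0.19 (limma adjusted p = 1). Both were lower in each mutant library, by smaller fold changes than dusp5, which were not tested against it. The other phosphatases of this family on the list did not share that direction. dusp2 was higher in both mutant libraries, at 41 and 34 in Npas4l-KO and 28 and 23 in WT. dusp1 overlapped, at 325 and 280 in Npas4l-KO and 279 and 303 in WT. ptprb, the phosphatase VE-PTP that acts on VE-cadherin and Tie2, had 48 and 81 in Npas4l-KO, against 24 and 45 in WT. Its log2 fold change was 0.90 ± 0.39 (limma adjusted p = 1). arhgap29b, of a family that works with Rasip1, had 212 and 185 in Npas4l-KO and 173 and 146 in WT. Its paralogue arhgap29a overlapped, at 187 and 169 in Npas4l-KO and 188 and 176 in WT. arhgef9a, the paralogue of arhgef9b, had 25 and 43 in Npas4l-KO and 28 and 18 in WT. radila, radilb and cd93 were not analysed here.

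Of 33 other endothelial genes, 31 had a matching row and 22 were tested, and 0 passed with limma-trend or limma-voom (1 lower and 1 higher at an unadjusted p under 0.05 in limma-trend, beside 1.91% and 1.84% of genes tested). 6 of the 31 were lower in both mutant libraries and 3 were higher in both, beside 12.2% and 15.6% of all genes. sox7, a SoxF transcription factor of vessels, had 24 and 21 in Npas4l-KO, against 51 and 59 in WT, both mutant values being below the wild-type ones by a log2 fold change of -1.25 ± 0.44 (limma adjusted p = 1). flt1, a VEGF receptor that acts as a decoy, had 13 and 69 in Npas4l-KO and 3 and 14 in WT. Its groups overlapped, and its log2 fold change was 2.01 ± 0.85 (limma adjusted p = 1). The apelin receptors aplnra and aplnrb had log2 fold changes of 0.27 ± 0.18 and -0.44 ± 0.30, with adjusted p-values of 1 in limma. Npas4l-KO replicate 2 was the highest library in 16 of the 31 genes, and in 3 of the 9 effector genes, beside 39.3% of all genes. That share fell with level, from 79.1% of genes with a wild-type mean under 5 to 11.5% at 60 and over. The counts were not matched by level. In pecam1, mrc1a and myct1b, chosen after their values were seen, Npas4l-KO replicate 2 was the only library not listed at 0, with 14, 17 and 5.

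Markers of 10 other tissues were summed for each library. Of 35 marker rows, 32 were tested, and 0 passed with limma-trend or limma-voom. At an unadjusted p under 0.05 limma-trend held 2 lower and 0 higher rows, beside 1.91% and 1.84% of all genes tested. Both lower rows were hatching gland markers: he1a (log2 fold change -0.51 ± 0.24) and a ctslb row (-0.78 ± 0.31). A further ctslb row stood at 0.013 ± 0.17, and the hatching gland sums overlapped between the groups. The sums were lower in both mutant libraries for 5 of the 10 tissues and higher in both for 2. No share for like sums of other genes was computed. Of single genes of the table, 12.2% were lower in both mutant libraries and 15.6% were higher in both. The cardiac markers summed to 579 and 510 in Npas4l-KO, against 681 and 667 in WT, and the erythroid ones to 24 and 26 in Npas4l-KO, against 38 and 45 in WT, although only 1 of the 3 erythroid rows was lower in both mutant libraries by itself. The somite markers summed to 2237 and 1973 in Npas4l-KO, against 2353 and 2478 in WT. By themselves, 2 of the 4 somite rows and 2 of the 4 cardiac rows were lower in both mutant libraries, beside 12.2% of all genes. In the other direction, the pronephros markers summed to 777 and 709 in Npas4l-KO, against 664 and 690 in WT. Only 1 of the 3 pronephros rows was higher in both mutant libraries by itself, beside 15.6% of all genes. The myeloid markers summed to 295 and 289 in Npas4l-KO, against 273 and 257 in WT. Most of that sum was cebpa, at 283 and 260 in Npas4l-KO and 256 and 248 in WT. csf1ra was also higher in both mutant libraries, at 11 and 21 against 7 and 2. spi1b, at 1 and 8 in Npas4l-KO and 10 and 7 in WT, overlapped. Npas4l-KO replicate 2 had the lowest total of normalised values, 7272902, against 7984958 to 8237748 in the other libraries. Among genes with a wild-type mean of 60 and over, its median difference from Npas4l-KO replicate 1 was -0.14 (log2). The part of this library difference in the tissue sums was not tested. Nor was the part of the tissue sums in the values of the effector genes.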

How the data were processed

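Total RNA of whole embryos was sequenced in 4 libraries, with the SMARTer Stranded Total RNA pico kit, per the labels. The submitters' processing notes name STAR 2.4.0a, featureCounts 1.4.5-p1 and DESeq2, on danRer10 (GRCz10), without settings. The deposited values are a score: gene counts that the authors scaled per library and rounded to whole numbers, as gaps and doubled numbers at regular intervals in the values show. They are not raw counts, so no count test was used. Normalised values summed to 8237748 and 7272902 in the Npas4l-KO libraries and to 7984958 and 8101165 in the WT libraries.

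Groups were compared on log2(value + 1) with limma-trend (limma 3.58.1, R 4.3.3), group as the only term, over the 16653 genes whose mean value reached 10. Adjusted p-values are Benjamini-Hochberg over those genes. Such folds understate changes of genes with low values. Standard errors came mostly from the variance trend across genes (83.6 prior degrees of freedom), so they reflect little of a gene's own spread, and low values widened the intervals. An exact permutation test of 2 against 2 cannot go below a two-sided p of 0.333. The code was tested on simulated data.

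Genes were matched by table symbol or, outside the effector set, by the present name of that Ensembl ID. lyn was left out because the table gives its ID the symbol of a different gene, tgs1, and not a clone name or an older name. The effector genes and lists were chosen with earlier results of these data known. Named were all effector genes, etv2, tal1, lmo2, 7 set paralogues and, per list, the genes past the test and up to 4 with the smallest p. dusp1, dusp2 and arhgap29a were added beside their relatives. Other settings changed the pseudocount, filter, scaling, variance model, replicate term or libraries used. Software was Python 3.11.15, pandas 2.3.3 and Matplotlib 3.10.9.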

Additional observations from a re-analysis of the deposited data

How the results depend on the processing

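The effector genes past the test numbered 0 in every setting that tested any of them. At a mean of at least 50 none was left to test. At an unadjusted p under 0.05, quantile normalization held 3 (egfl7, dusp5 and yrk), beside 682 of 16653 genes tested. The fit as reported held egfl7 and dusp5, beside 624 of 16653. The other settings that tested any and kept all libraries held egfl7 alone. Beside it, the genes tested ran from 529 of 16653 (limma-voom) to 829 of 24235 (no filter). The counts over genes tested take both directions together. egfl7, dusp5, cdh5, yrk and she kept their direction in all 10 settings that gave them a value, between -1.66 and -1.06 for egfl7. For egfl7, dusp5, cdh5 and yrk both mutant values lay below both wild-type ones. Their direction was thus fixed in advance wherever only the pseudocount, filter, replicate term or libraries used changed, and adds no support there. tie1 turned to -0.18 without Npas4l-KO replicate 2, within a range of -0.18 to 1.15 when each library was left out, and tmem88a to -0.0057 with quantile normalization. Over all genes, 8 passed, 15 when libraries were scaled to totals without mitochondrial and ribosomal RNA, and 6 to 274 when each library was left out in turn, the most without Npas4l-KO replicate 1 and 22 without Npas4l-KO replicate 2. Those fits take a group's single library to have the spread of the remaining pair, and genes tied in the remaining pair were not tested. The median over the 9 genes ran from -1.16 to 0.14 over these fits and stood at -0.97 with quantile normalization. With the replicate block 9 genes passed, 0 of them effector genes. Deviations of same-numbered libraries correlated at 0.009 over genes tested, so the numbers were not taken as pairs. At these low values, of at most 53 per library, the depth limits what single genes can show.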
